A study of Homo sapiens with 3 samples.

Results

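The ATP-binding cassette (ABC) transporters were examined in HCT-116 cells with and without silencing of *APC*, with *ABCC3* described beside its relatives. Members were the rows of the deposited table whose symbol is ABC followed by a subfamily letter from A to G and a number, together with *TAP1* and *TAP2*, which gave 48 genes of 23131. *CFTR*, a C subfamily gene by descent that carries another symbol, was not among them. HCT-116 is a colon carcinoma line that carries wild-type *APC* and a CTNNB1ΔSer45 allele, a degradation-resistant form of β-catenin, and this genotype is common to every condition. Cells were transfected on 2 consecutive days with pooled anti-*APC* *siRNA*, with a pooled scrambled *siRNA*, or with no *siRNA*, and RNA was collected 48 hours after the second transfection. The condition without *siRNA* is titled untransfected, although its treatment label names cells given reagent only (mock). Each condition was 1 library from 1 cell line. Values of the scrambled condition were not analysed here, so cells given anti-*APC* *siRNA* (silenced cells) were set against untransfected cells, and any effect of *siRNA* delivery is included. Where 2 values follow a gene name without further words, the first is from silenced cells.

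ABC proteins share a conserved pair of ATP-binding domains and use ATP hydrolysis to move substrates across membranes, although the E and F subfamilies lack membrane domains and act on ribosomes. Some carry all their domains in one chain, whereas TAP1, TAP2 and the D subfamily work as dimers of shorter chains. In intestinal epithelium the family is best known for the export of drugs, conjugated xenobiotics, bile salts and sterols. ABCC3, also called MRP3, sits in the basolateral membrane of enterocytes and cholangiocytes and exports glucuronide conjugates and bile salts toward the blood.

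Levels are given as FPKM, fragments scaled to transcript length and to the mapped reads of a library, so that genes can be compared per length. Differences are log2 ratios of FPKM plus 0.1, anti-*APC* *siRNA* over untransfected, and are negative where the level was lower with anti-*APC* *siRNA*. Genes were compared when their level averaged 1 FPKM or more over both libraries, and a gene was counted as higher or lower when the ratio on this scale passed 1.5-fold. With 1 library per condition there is no replicate check and no test, and higher or lower refers to these 2 libraries and not to the conditions. Each ratio of FPKM is given where it matters with a 95% counting interval, which was computed from estimated read numbers and covers counting error only. The estimate rests on rows of very low FPKM, whose most frequent ratio between the libraries is that of 1 read in each, and by it about 25300000 reads stood behind the untransfected values and 23100000 behind those of silenced cells. The silenced gene itself had 3.43 FPKM in silenced and 9.15 FPKM in untransfected cells, a ratio of 0.375, so it was lower in the library labelled as silenced. Of 9 colon epithelial markers, 6 were at 1 FPKM or more in both libraries, led by *KRT8* at 478 FPKM in silenced and 588 FPKM in untransfected cells, while *CDX1*, *VIL1* and *KRT20* were under 1 FPKM. The 3 endothelial markers and the 4 hepatocyte markers stayed under 1 FPKM in both libraries, and in the fibroblast and leukocyte lists only *COL1A1* and *CD68* passed 1 FPKM.

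Of the 48 members 24 averaged 1 FPKM or more and could be compared, and the other 24 were below that level. Among the compared members *ABCC3* and *ABCA2* were lower past 1.5-fold with anti-*APC* *siRNA*, and none was higher. In RNA from whole cultures, fewer cells that express a gene and less RNA per cell cannot be told apart. The 2 genes are 8.33% of the compared members, next to 6.80% of all 12197 compared rows that were lower and 2.92% that were higher (9.72% in either direction), so the share of lower members was close to that of all rows. The log2 ratio was below 0 in 16 of the 24 members (66.7%, against 58.6% of all compared rows) and above 0 in 8. The median log2 ratio was -0.17 over the compared members and -0.13 when *ABCC3* was left out, against -0.05 over all compared rows. Median ratios over all rows were themselves lower at low expression, with -0.18 at a mean of 1 to 3 FPKM, -0.10 at 3 to 10 FPKM and -0.01 at 30 to 100 FPKM. The epithelial markers that could be compared were below 0 as well, in 6 of 6 genes with a median of -0.35, and the part of such a shared shift in the family values was not tested. Of these markers *CDH1* was lower past 1.5-fold (16.7%, against 6.80% of all compared rows), at 12.1 FPKM in silenced and 19.0 FPKM in untransfected cells. *CD68* was lower past it too, at 5.01 and 8.91 FPKM, whereas *COL1A1* was not, at 3.08 and 2.85 FPKM.

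**Figure D1:**
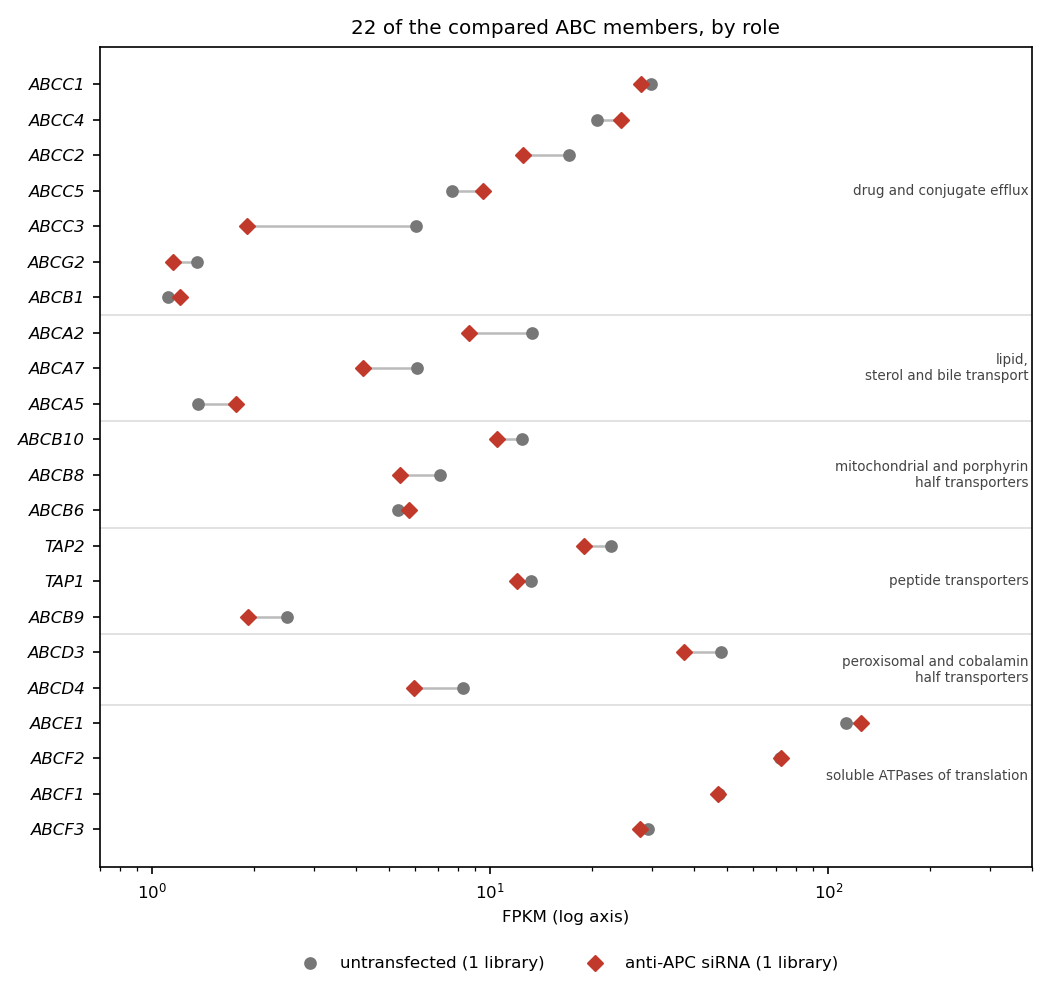
FPKM (log axis) of 22 of the compared ABC members in the untransfected library (grey circles) and the anti-*APC* *siRNA* library (red diamonds), grouped by role, with 1 library per condition and a line joining both values of a gene. The longest line belongs to *ABCC3*, from 6.02 to 1.90 FPKM, and both symbols nearly coincide for *ABCF1* and *ABCF2*.

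*ABCC3* had the largest log2 difference of the compared members. Its level was 1.90 FPKM in silenced and 6.02 FPKM in untransfected cells. The anti-*APC* library thus held 31.6% of the untransfected level, a 3.16-fold difference, with a 95% counting interval of the ratio from 0.274 to 0.364. The estimated read numbers behind these values were 250 and 866. On the scale of FPKM plus 0.1 the log2 ratio was -1.61, and 114 of the 12197 compared rows (0.935%) had a lower one. The study selected *ABCC3* as a decreased gene from a comparison of the same anti-*APC* library with the scrambled condition, among other criteria, so its position at the low end is a description and not independent evidence. *ABCC3* (ENSG00000108846) lies on the forward strand of GRCh37 at chr17:48712138-48769614, was alone at its locus in the deposited table, and no other annotated gene overlaps it. Of the 5 other genes of the table within 100 kb, *SPATA20* had 9.52 FPKM in silenced and 15.6 FPKM in untransfected cells, a log2 ratio of -0.71. *EPN3* was at 0.990 and 1.55 FPKM, a log2 ratio of -0.59. *SPATA20* and *EPN3* were thus lower past 1.5-fold, *EPN3* only just, as were 6.80% of all compared rows. At a mean of 1 to 3 FPKM, the range of *EPN3*, 16.4% of all rows were lower. At 10 to 30 FPKM, the range of *SPATA20*, the share was 4.26%. *CACNA1G*, at 0.242 and 0.443 FPKM with a log2 ratio of -0.67, was too low to be compared. *ANKRD40* and *LUC7L3* had log2 ratios of 0.09 and 0.00.

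The other compared C members, *ABCC1*, *ABCC2*, *ABCC4* and *ABCC5*, were expressed more highly than *ABCC3* and differed far less between the libraries. *ABCC1*, which exports glutathione conjugates from most cell types, had 27.8 FPKM in silenced and 29.9 FPKM in untransfected cells. *ABCC2*, the apical pump for bilirubin glucuronide and related conjugates, had 12.5 FPKM with and 17.1 FPKM without. Its ratio of 0.731 (counting interval 0.686 to 0.777) was the next lowest among the compared C members and its interval lay wholly above that of *ABCC3*. *ABCC4*, an exporter of cyclic nucleotides and prostaglandins, was at 24.4 FPKM in silenced and 20.6 FPKM in untransfected cells. *ABCC5*, which also carries cyclic nucleotides, was at 9.52 and 7.71 FPKM. These 2 genes stood on the other side of equality, with ratios of 1.18 (counting interval 1.12 to 1.24) and 1.23 (1.14 to 1.34). The summed FPKM of *ABCC1* to *ABCC5* was 76.1 with anti-*APC* *siRNA* and 81.4 without, and *ABCC3* made up 2.50% and 7.40% of it. Both libraries thus held a similar total of these transcripts with *ABCC3* as the least abundant of the 5.

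The pumps best known for multidrug resistance were near the lower limit of the comparison. *ABCB1*, which encodes P-glycoprotein, was at 1.21 FPKM in silenced and 1.11 FPKM in untransfected cells. *ABCG2*, a drug and urate exporter, was at 1.15 and 1.35 FPKM. Their counting intervals of 0.859 to 1.38 and 0.660 to 1.10 both included equal levels, so a difference within these ranges was not detectable at this depth. *ABCB1* shares its locus in the table with *RUNDC3B*, which had 1.66 FPKM in silenced and 1.43 FPKM in untransfected cells, and the division of reads between them was not tested. *ABCC10* was marked as a failed estimate and listed at 0 in both libraries, as were all 269 rows of that status, so its 0 is not a measurement of absence. *ABCC11* had under 0.1 FPKM in both libraries, *ABCC12* was listed at 0 in both, and *ABCB5* was listed at 0 with anti-*APC* *siRNA* and at 0.0077 FPKM without.

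**Figure D2:**
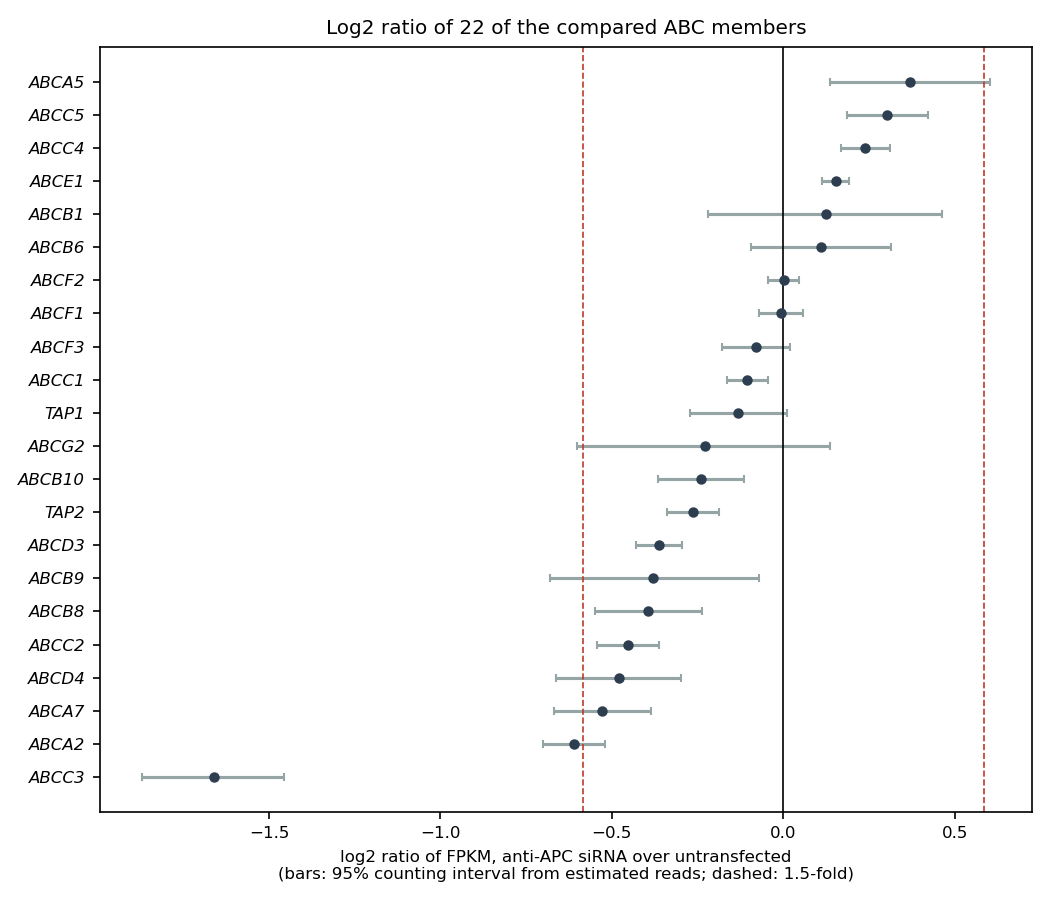
Log2 ratio of FPKM without a pseudocount (x axis), anti-*APC* *siRNA* over untransfected, for 22 of the compared ABC members, with 95% counting intervals from estimated reads as bars and dashed lines at 1.5-fold. The interval of *ABCC3* stands apart from that of every other member drawn. Those of *ABCA2*, *ABCA7*, *ABCB9*, *ABCD4* and *ABCG2* cross the lower 1.5-fold line, and that of *ABCA5* crosses the upper one.

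The lipid and sterol transporters were mostly near 0, and only 3 of the 18 could be compared. *ABCA2*, a lipid transporter of endolysosomes, was at 8.67 FPKM in silenced and 13.2 FPKM in untransfected cells. The level was thus 1.53-fold lower in silenced cells, with a counting interval of the ratio from 0.616 to 0.697 that includes the threshold itself. The gene was not past 1.5-fold with a pseudocount of 1 FPKM or after the median of all rows was subtracted. *ABCA2* (chr9:139901686-139923367, reverse strand) shares its table locus with *FUT7* and *C9orf139*, both under 0.05 FPKM. *ABCA7*, a phospholipid transporter related to ABCA1, fell just short of the threshold at 4.21 and 6.07 FPKM, a 1.44-fold lower level. *ABCA5*, a lysosomal member, was the highest of the compared members in ratio at 1.77 FPKM in silenced and 1.37 FPKM in untransfected cells (ratio 1.29, counting interval 1.10 to 1.52). It shares a locus with *ABCA10*, which was at 0.0897 and 0.104 FPKM. The 3 genes thus fell on both sides of equality, with *ABCA2* and *ABCA7* below it and *ABCA5* above.

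The sterol and bile transporters familiar from enterocytes and hepatocytes were near or at 0. *ABCG5* and *ABCG8*, whose products form the sterol exporter of the apical membrane, were both listed at 0 in both libraries, and *ABCB11*, the bile salt export pump, was at 0.0087 FPKM with anti-*APC* *siRNA* and listed at 0 without. *ABCA1*, which loads cholesterol onto apolipoprotein A-I, was at 0.112 FPKM in silenced and 0.0527 FPKM in untransfected cells. Its estimated 27 and 14 reads gave a ratio of 2.12 with a counting interval of 1.07 to 4.36. *ABCG1*, a sterol exporter, was at 0.169 and 0.220 FPKM, and *ABCG4*, its brain relative, at 0.912 and 0.802 FPKM. *ABCG4* was the highest of all 24 members left out of the comparison. The 8 lipid and bile transporters not yet named had levels under 0.6 FPKM in both libraries, the highest being *ABCA3*, the surfactant lipid transporter of lung, at 0.401 and 0.527 FPKM. Of those 24, 7 were listed at 0 in both libraries, 5 at 0 in 1 library, and 12 were above 0 in both.

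Among mitochondrial and porphyrin-linked transporters of the B subfamily, *ABCB6*, *ABCB8* and *ABCB10* were expressed and none of them passed 1.5-fold. *ABCB10*, linked to haem synthesis, was at 10.5 FPKM in silenced and 12.4 FPKM in untransfected cells, and *ABCB8*, a mitochondrial member, at 5.39 and 7.09 FPKM. *ABCB6*, a porphyrin-linked member, was at 5.76 and 5.34 FPKM. The lowest ratio of these was that of *ABCB8* at 0.761 (counting interval 0.684 to 0.848), whereas the interval of *ABCB6* (0.937 to 1.24) included equal levels.

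The D subfamily serves peroxisomes and lysosomes, and *ABCD3* and *ABCD4* had log2 ratios below 0, although neither passed 1.5-fold. Of all compared rows 58.6% were below 0. *ABCD3*, which imports branched-chain and bile acid intermediates into peroxisomes, was at 37.4 FPKM in silenced and 48.1 FPKM in untransfected cells, a ratio of 0.777 (counting interval 0.742 to 0.814). *ABCD4*, needed for cobalamin release from lysosomes, was at 5.93 and 8.28 FPKM, a ratio of 0.717 (0.632 to 0.813). Their log2 ratios were -0.36 and -0.47, below the lower quartile of -0.24 over all compared rows. *ABCD2*, a peroxisomal fatty acyl-CoA importer, was at 0.0926 FPKM in silenced and 0.0070 FPKM in untransfected cells. These values correspond to an estimated 13 reads and 1 read, a ratio of 13.1 with a counting interval of 2.14 to 605, and the gene was too low to be compared.

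The 3 peptide transporters had log2 ratios below 0, from -0.36 to -0.13, as did 58.6% of all compared rows, and none passed 1.5-fold. *TAP1*, one chain of the endoplasmic reticulum transporter that supplies peptides to MHC class I, was at 12.0 FPKM in silenced and 13.2 FPKM in untransfected cells. Its counting interval of the ratio, 0.828 to 1.01, included equal levels. *TAP1* shares its locus with *PSMB8* (0.174 and 0.238 FPKM) and *LOC100507463* (0.344 and 0 FPKM). *TAP2*, the other chain, was at 19.0 and 22.8 FPKM. *TAP2* exceeded *TAP1* in both libraries, 1.58-fold with anti-*APC* *siRNA* and 1.73-fold without. *ABCB9*, the lysosomal relative of both, was at 1.92 and 2.50 FPKM and shares its locus with *OGFOD2*, which was at 3.69 and 5.79 FPKM. *TAP1*, *TAP2* and *ABCF1* are placed by the deposited table on an alternate haplotype of the MHC region, as are 237 rows in all, each of them marked as not tested by Cuffdiff. The sharing of reads among haplotypes of this region was not tested, and the values of these 3 genes carry that uncertainty. On the primary assembly of GRCh37 *TAP1* is annotated at chr6:32812986-32821593 and *TAP2* at chr6:32789610-32806516, both on the reverse strand.

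The soluble members that act on ribosomes were among the most abundant of the family, and none passed 1.5-fold. *ABCE1*, which splits ribosomes after termination, had the highest level of all 48 genes, at 125 FPKM in silenced and 113 FPKM in untransfected cells. Its ratio was 1.11 with a counting interval of 1.08 to 1.14, and it shares its locus with *ANAPC10* at 24.1 and 19.4 FPKM. *ABCF2* was at 72.1 FPKM in both libraries, *ABCF1*, which is tied to translation initiation, at 47.2 and 47.4 FPKM, and *ABCF3* at 27.7 and 29.3 FPKM. *ABCF1* shares its locus with *MIR877*, listed at 72.5 and 105 FPKM, and the division of reads between them was not tested. The log2 ratios of the 4 soluble members lay between -0.08 and 0.15, and the intervals of the F members included equal levels. The 4 genes together made up 272 of 484 FPKM summed over the family with anti-*APC* *siRNA* and 262 of 506 FPKM without.

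The remaining C members were not expressed at a level that could be compared. *ABCC6*, needed for ATP release from cells, was at 0.649 FPKM in silenced and 0.835 FPKM in untransfected cells. Its partial copies *ABCC6P1* (0.152 and 0.0742 FPKM) and *ABCC6P2* (0.263 and 0.468 FPKM) are near-identical in sequence to the parent, so the division of reads among these 3 rows is uncertain. *ABCC8* and *ABCC9*, the sulfonylurea receptors of potassium channels, did not exceed 0.0045 FPKM, and *ABCC13*, which lacks a functional product in humans, was listed at 0 in both libraries. *CFTR*, the chloride channel of the subfamily, was at 0.0134 FPKM in silenced and 0.0061 FPKM in untransfected cells, an estimated 2 reads and 1 read.

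**Figure D3:**
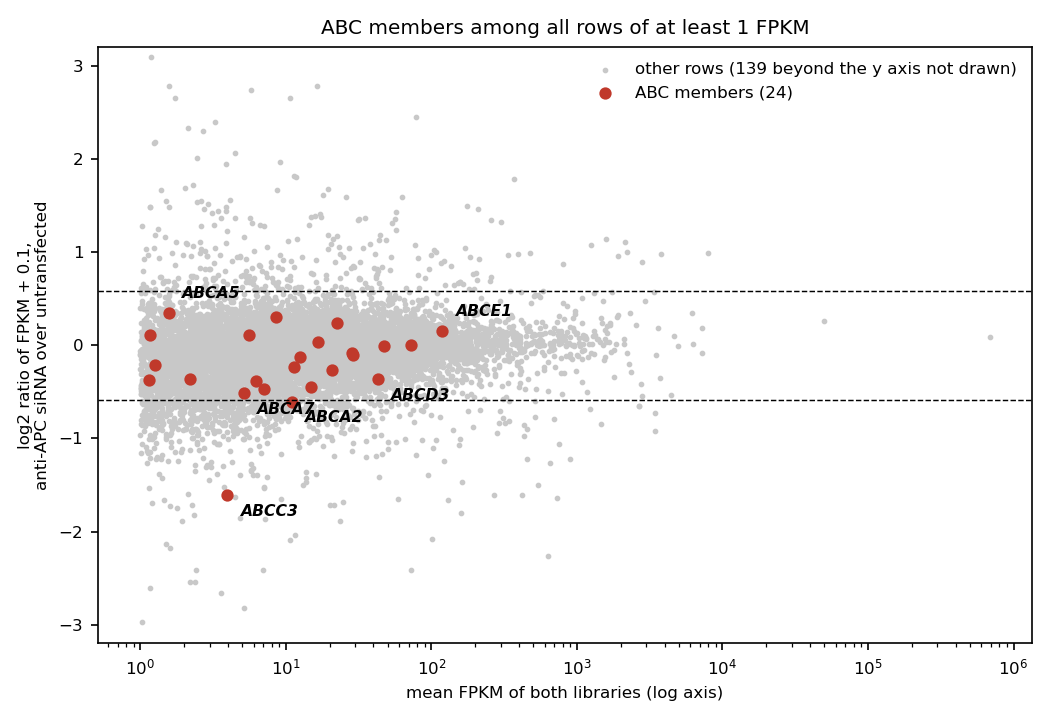
Log2 ratio of FPKM plus 0.1, anti-*APC* *siRNA* over untransfected, against the mean FPKM of both libraries (log axis) for the other compared rows inside the drawn range (grey) and the 24 ABC members (red), with dashed lines at 1.5-fold. *ABCC3* lies at -1.61, while the other members lie between -0.60 and 0.35.

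The counting interval lay below equal levels in 11 of the 24 compared members (45.8%), above it in 4 (16.7%), and included it in 9. Over the 10143 compared rows with a transcript length these shares were 36.8% below and 24.4% above. Of all compared rows with a mean of 3 to 10 FPKM, the range that holds *ABCC3*, 90% lay between log2 ratios of -0.69 and 0.40. *ABCC3* was outside this range, and the other 5 members in it, *ABCA7*, *ABCB6*, *ABCB8*, *ABCC5* and *ABCD4*, were inside it. In order of level *ABCC3* was the 18th of 48 members in untransfected cells and the 20th with anti-*APC* *siRNA*. Without *siRNA* it stood beside *ABCA7* (6.07 FPKM), with *ABCB6* (5.34 FPKM) next below, and with anti-*APC* *siRNA* beside *ABCB9* (1.92 FPKM) and *ABCA5* (1.77 FPKM).

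Genes that work with these transporters were described from 9 lists, one or more for each role. Conjugation enzymes make the glucuronides, sulfates and glutathione adducts that ABCC pumps carry. The list drawn up for them also holds *NQO1*, *EPHX1*, *GCLC*, *GCLM* and *GSS*, which do not themselves form such conjugates. In that list of 32 genes 15 could be compared, 4 were lower past 1.5-fold (26.7%, against 6.80% of all compared rows) and none was higher (2.92% of all rows), with a median log2 ratio of -0.16 against -0.05 over all rows. With a pseudocount of 1 FPKM 2 of them were lower past 1.5-fold. *SULT1A1*, a phenol sulfotransferase, was at 5.11 FPKM in silenced and 9.59 FPKM in untransfected cells (ratio 0.532, counting interval 0.445 to 0.637). *SULT1A2*, a close copy of it, was at 1.42 and 2.61 FPKM, and the division of reads between these copies is uncertain. *NQO1*, a quinone reductase, was at 85.1 and 146 FPKM, a ratio of 0.584 (0.564 to 0.604). *SULT2B1*, a sterol sulfotransferase, was at 0.896 and 1.40 FPKM with an interval of 0.381 to 1.09 that included equal levels. The share of all rows that were lower depended on level. It was 16.4% at a mean of 1 to 3 FPKM, the range of *SULT1A2* and *SULT2B1*. It was 8.02% at 3 to 10 FPKM, the range of *SULT1A1*, and 4.84% from 100 FPKM upward, the range of *NQO1*. The most abundant gene of the list was the glutathione transferase *GSTP1*, at 263 FPKM in silenced and 388 FPKM in untransfected cells, just short of the threshold. The glucuronosyltransferases of the list, which make the substrates that ABCC3 is best known for, were under 0.02 FPKM or listed at 0. Those of the UGT1A group are each listed at a locus of 11 rows, and the division of reads among these rows was not tested. *UGT2B15* and *UGT2B17* are placed on an alternate haplotype, so these low values carry that uncertainty as well.

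None of the regulators of drug and bile acid response passed 1.5-fold. Of 15 regulators 10 could be compared, with a median log2 ratio of 0.03, and the most abundant was *NFE2L2*, which encodes NRF2, at 70.0 FPKM in silenced and 67.0 FPKM in untransfected cells. The pregnane and bile acid receptors *NR1I2* and *NR1H4* were listed at 0 in both libraries. The vitamin D receptor *VDR* was at 6.97 and 6.16 FPKM. In the list of bile acid and organic anion handling 6 of 17 genes could be compared, with a median of -0.03 and none past the threshold. Its most abundant member *SLCO4A1*, an organic anion uptake carrier, was at 24.5 and 22.9 FPKM, while the ileal bile acid carrier *SLC10A2* was listed at 0. *SLC51A* and *SLC51B*, which release bile acids across the basolateral membrane, were respectively at 0.507 FPKM in silenced and 0.260 FPKM in untransfected cells, and at 0 in both.

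Among apical scaffold and membrane proteins 8 of 11 genes could be compared, with a median log2 ratio of -0.31, and 6 of 8 were below 0 (58.6% of all compared rows). *MSN*, which encodes the membrane to actin linker moesin, was the 1 gene of these lower past 1.5-fold (12.5%, against 6.80% of all rows). It was at 61.8 FPKM in silenced and 93.9 FPKM in untransfected cells. Its counting interval of the ratio, 0.636 to 0.680, included the threshold. *MSN* was not past 1.5-fold after the median of all rows was subtracted. The most abundant member *EZR*, which encodes ezrin, was at 699 and 859 FPKM. In the other 5 lists no gene passed 1.5-fold in either direction. The median was -0.11 over 11 genes of antigen peptide loading, the most abundant of which was *CALR* at 571 FPKM in silenced and 570 FPKM in untransfected cells. It was -0.10 over 11 genes of peroxisome import and β-oxidation, led by *HSD17B4* at 36.2 and 42.7 FPKM, and -0.04 over 15 genes of iron-sulfur cluster and haem synthesis, led by *CPOX* at 253 and 197 FPKM. Over 10 regulators and partners of sterol efflux it was -0.04, led by *NPC2* at 108 and 84.3 FPKM. Over 12 genes of ribosome recycling and translation control it was 0.06, led by *EIF4G2* at 834 and 671 FPKM.

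**Figure D4:**
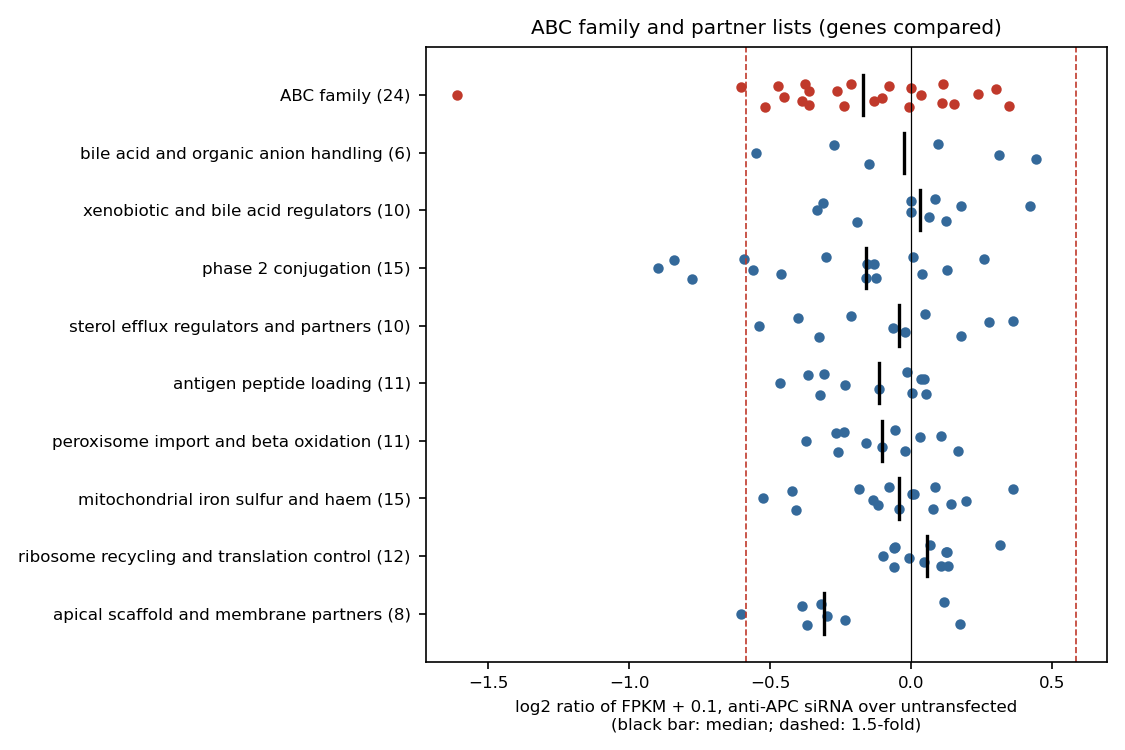
Log2 ratio of FPKM plus 0.1, anti-*APC* *siRNA* over untransfected, of each compared gene in the ABC family (red) and the 9 partner lists (blue), with black bars at the medians, dashed lines at 1.5-fold and the number of genes in brackets. The 4 genes of the phase 2 conjugation list, *NQO1* among them, and 1 apical scaffold gene lie past the lower line. *ABCC3* and *ABCA2* of the family lie past it too, and no gene lies past the upper line.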

How the data were processed

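The deposited table was made by the authors with Cufflinks and Cuffdiff on single-read libraries mapped to hg19, and its values are FPKM per gene. Tool versions, the aligner, the annotation and the use of strand are not given in the sources used here. The table also holds the authors' own comparison (log ratio, test statistic, p-value, q-value and call), which was not used. The scrambled condition was not analysed here.

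Members and lists were chosen with earlier results of these data known. Every member that averaged 1 FPKM or more is named, except 2 that are not reported here but stay in the counts, and from each of the 9 lists the genes past 1.5-fold and the most abundant one. Further genes were chosen with their values known. Log2 ratios use a pseudocount of 0.1 FPKM. Older symbols were matched through RefSeq synonyms, and *SULT1A3* had no row. Coordinates come from GENCODE 44 on GRCh37, and for 45 members the chromosome equals that in the table, the other 3 being on an alternate haplotype. Of 3408 low rows 403 shared the most frequent ratio, 0.13 on the log2 scale within 0.005. With the canonical transcript length of 323 of them, it gave the depth. Read numbers are FPKM times canonical length and depth, and intervals are Clopper-Pearson. The calculation of ratios and depth was tested on simulated data. These were built with the same canonical lengths, so error from those lengths was not tested. Alternatives were other pseudocounts, filters, folds, centring and subsets of rows. Python 3.11.15, numpy 2.4.6, pandas 2.3.3, scipy 1.17.1 and matplotlib 3.10.9 were used.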

Additional observations from a re-analysis of the deposited data

How the results depend on the processing

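*ABCC3* was lower past the fold under every setting that kept it in the comparison, since a mean of at least 5 FPKM removes it. Its log2 ratio was -1.27 with a pseudocount of 1 FPKM, and that of *APC* -1.19. *ABCA2* was not past 1.5-fold with that pseudocount or with the median of all rows subtracted, nor past 2-fold, and it is not among rows alone at their locus, so 1 member was lower under each of these, and 1 with a mean of at least 5 FPKM. At the lower threshold of 5/4-fold 9 members were lower and 1 higher. Without a filter 1 member was higher, *ABCD2*, and the family median was -0.026.

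Over all rows the counts of higher and lower were 164 and 228 at 2-fold, 895 and 2240 at 5/4-fold, 236 and 412 at 5 FPKM, 869 and 1613 without a filter, and 185 and 526 for rows alone at their locus. With a pseudocount of 1 FPKM 526 were lower. Partner genes that were lower numbered 3 with that pseudocount, after centring and at 5 FPKM, 0 at 2-fold, 21 at 5/4-fold and 11 without a filter, and 4 and 2 were higher under the last 2. Genes of the conjugation list that were lower numbered 2 with a pseudocount of 1 FPKM and at 5 FPKM, and 0 at 2-fold. Of 69 values of other single members under another pseudocount or centring, 2 moved by more than their counting error, both by centring (*ABCE1* and *ABCF2*). *ABCA2*, the only gene of these past 1.5-fold, kept its sign, which a change of pseudocount cannot alter. Centring moved the log2 ratio of *ABCF1* across equality, from -0.006 to 0.047. Leaving out alternate haplotypes, chosen after the data were seen, left 2 members lower. Scrambled *siRNA* as the control was not run. No paired analysis was possible because each condition has 1 library.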
